A study of Drosophila melanogaster with 6 samples.

Results

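The genes described here are the Drosophila midkine and pleiotrophin homologues miple1 and miple2, the receptor tyrosine kinase gene Alk and the gene of its ligand, jeb (jelly belly). They are 4 of the 17612 genes in the count table. miple1 was chosen by its measured fall in CPM and log2 fold change from WT to Double, so its values in that comparison are a description and carry no test. The other 3 genes were taken as its relative and as members of the pathway, not for their own values. Earlier results of these data were known when they were chosen. All 4 had enough counts to be tested, among 8802 tested genes.

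Poly-A RNA came from leg discs of third-instar Drosophila melanogaster larvae raised at 25 °C, with 3 libraries labelled WT (wild type) and 3 labelled Double, and 20 discs in each library. The series describes its mutant discs as carrying a PRE deletion. A PRE, or Polycomb response element, is a stretch of DNA to which the Polycomb repressor complexes are brought. The labels do not say which elements were deleted, on which chromosome, in what strain background or with what larval sex, and nothing says that replicates came from separate crosses, so the tests speak to the spread among these 6 libraries, which may in part be technical.

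Midkine and pleiotrophin are small, basic, heparin-binding secreted proteins of vertebrates, and the fly carries a pair of homologues, of which miple1 is known from the embryonic nervous system and miple2 from the embryonic gut. In the fly, Jeb is the secreted protein that activates Alk, and Alk signals through the Ras and MAPK relay. That signal is known for specifying founder cells of the gut muscle in the embryo, for wiring of the visual system, and for sustaining brain growth when larvae are starved. In mammals midkine and pleiotrophin have been proposed to act on ALK and also bind heparan sulphate proteoglycans and receptor tyrosine phosphatases, so genes of these groups are described after the 4 members.

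The midkine homologues lie head to tail on the plus strand of chromosome arm 3L. miple1 (FBgn0027111) occupies 267299 to 270336 and miple2 (FBgn0029002) occupies 271200 to 275018 (dm6 coordinates), with 863 bases and no annotated gene between them. The annotation gives miple1 3 transcripts with 1997 bases of exon in all, and miple2 5 transcripts with 1508 bases. Alk (FBgn0040505) lies on the minus strand of 2R at 16625293 to 16640011, with 9.73 kb of exons. jeb (FBgn0086677) lies on the minus strand of 2R at 12085194 to 12119340, with 10.4 kb of exons.

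miple1 was read at 66.2, 68.2 and 80.8 CPM (library-size-scaled counts, with TMM factors) in replicates 1, 2 and 3 of WT. In Double replicates 1, 2 and 3 it was read at 8.69, 7.77 and 8.84 CPM. The 3 Double libraries thus lay together and far below the lowest WT library, with no overlap of the groups. The mean was 71.7 ± 7.96 CPM for WT and 8.43 ± 0.576 CPM for Double (SD, n = 3 each), so that Double held 11.8% of the WT level. The fitted log2 fold change was -3.09 (SE 0.11), an 8.50-fold lower level. These values rest on 603 to 898 counts per WT library and 86 to 101 counts per Double library, so the transcript was low but still detected in every Double library. Of the 8802 tested genes, 25 had a fitted log2 fold change at least as far below 0, miple1 included, and 2 of these had a higher mean CPM in WT than miple1.

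miple2, the neighbour and relative of miple1, was read at 488.3, 413.9 and 423.7 CPM in replicates 1, 2 and 3 of WT. Its Double values were 489.6, 443.1 and 444.4 CPM in the same order. The groups overlapped almost fully, and the spread among all 6 libraries was only 1.18-fold. The means were 442.0 ± 40.4 CPM for WT and 459.0 ± 26.5 CPM for Double (SD, n = 3 each). The log2 fold change was 0.05 (SE 0.08) with an edgeR quasi-likelihood adjusted p of 0.8235 (Benjamini-Hochberg, over all tested genes). Its unadjusted 95% interval ran from -0.14 to 0.25. CG32845, an annotated gene on the opposite strand, shares 289 bases of exon with miple2. Whether counting used the strand is unknown here, so reads of the shared bases cannot be told apart. CG32845 itself was read at a mean of 1.47 CPM for WT and 1.62 CPM for Double. These values do not show how reads of the shared bases were counted.

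**Figure D1:**
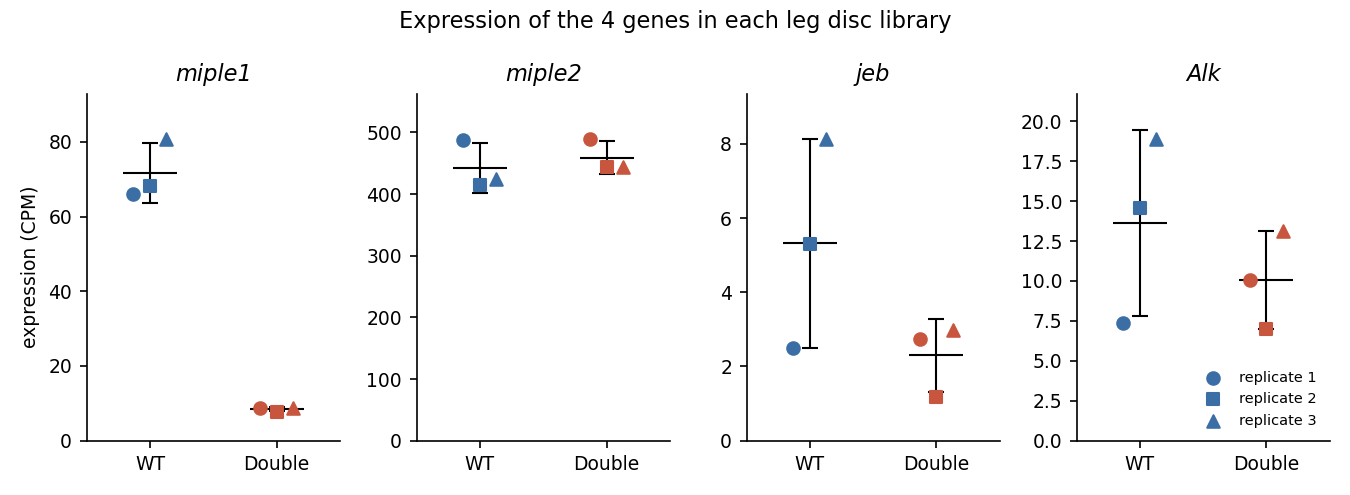
Expression in CPM (vertical axes, each from 0) of miple1, miple2, jeb and Alk in the 3 WT (blue) and 3 Double (red) libraries. Symbols mark replicates 1 to 3, the horizontal bar is the group mean and the error bar its SD. The Double libraries of miple1 sit between 7.77 and 8.84 CPM, below every WT library, while the groups overlap for the other 3 genes.

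Counted together, the midkine homologues were dominated by miple2 in every library. miple1 supplied 11.9%, 14.1% and 16.0% of their summed counts in WT replicates 1, 2 and 3, with Wilson 95% intervals of 11.2 to 12.7%, 13.1 to 15.2% and 15.1 to 17.0%, which cover counting error only. In Double replicates 1, 2 and 3 its share was 1.74%, 1.72% and 1.95%, with intervals of 1.44 to 2.11%, 1.40 to 2.12% and 1.59 to 2.39%. Among the WT libraries the interval of replicate 1 thus lay below those of replicates 2 and 3. The Double intervals overlapped, but they are wider for their share. They rest on 86 to 101 miple1 counts per library, against 603 to 898 in WT. Per kb of exon, miple2 stood 6.94 to 9.77 times above miple1 in the WT libraries and 66.6 to 75.5 times above it in the Double libraries. Part of this pattern, the low miple1 level in Double, is what miple1 was picked for.

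jeb, the Alk ligand gene, was the scarcest of the 4. It was read at 2.51, 5.31 and 8.14 CPM in replicates 1, 2 and 3 of WT, from 34, 47 and 90 counts. The Double values were 2.75, 1.18 and 2.98 CPM, from 32, 13 and 30 counts. WT replicate 1 lay among the Double libraries and WT replicate 3 stood highest, so the groups overlapped. The log2 fold change was -1.20 (SE 0.51), from 5.32 ± 2.82 CPM in WT to 2.30 ± 0.983 CPM for Double (SD, n = 3 each). It did not pass the test (edgeR adjusted p = 0.3918, unadjusted p = 0.04643), and the unadjusted 95% interval ran from -2.38 to -0.02. The exact Poisson interval of the lowest library, Double replicate 2, was 0.626 to 2.01 CPM, and that of the highest, WT replicate 3, began at 6.54 CPM, so the libraries differed beyond counting error.

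Alk, the receptor gene, was read at 7.37, 14.6 and 18.9 CPM in replicates 1, 2 and 3 of WT. The matching Double values were 10.1, 6.96 and 13.1 CPM. WT replicate 1 and Double replicate 2 were the lowest libraries, WT replicate 3 was again the highest, and the groups overlapped. The means were 13.6 ± 5.83 CPM for WT and 10.04 ± 3.07 CPM for Double (SD, n = 3 each). Its log2 fold change of -0.44 (SE 0.38) had an edgeR adjusted p of 0.69 and an unadjusted 95% interval from -1.35 to 0.48, which is wide because the libraries differed within each group. None of miple2, Alk and jeb thus passed the test (edgeR), against 1.49% of all tested genes. Of these 3, only jeb stood at an unadjusted edgeR p under 0.05, beside 12.3% of all tested genes. The unadjusted p of jeb was 0.02973 in DESeq2 and 0.1228 in limma-voom. It ran from 0.00623 to 0.2087 in edgeR with 1 library left out. DESeq2 and limma-voom called none of the 3 either.

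The 4 genes stood in the order miple2, miple1, Alk and jeb by level per length in each of the 6 libraries. In WT the mean was 293.1 ± 26.8 CPM per kb of exon for miple2, 35.9 ± 3.99 for miple1, 1.40 ± 0.599 for Alk and 0.513 ± 0.271 for jeb (SD, n = 3). In Double the means were 304.4 ± 17.6, 4.22 ± 0.288, 1.03 ± 0.316 and 0.222 ± 0.0947 CPM per kb in the same order. The neighbours in this order were separated by more than their spread, except Alk and jeb in WT, where the lowest Alk library (0.757 CPM per kb) lay below the highest jeb library (0.784 CPM per kb). Within each library Alk was above jeb, by 2.48 to 3.14 times in WT and 3.90 to 6.32 times in Double. Among 8771 tested genes with an annotated length, miple2 ranked 187th in WT and 183rd in Double by CPM per kb, and miple1 ranked 2164th in WT and 6836th in Double. The lengths count every annotated exon. The annotated jeb transcripts run from 4455 to 10378 bases, so its level per kb depends on which one the disc uses.

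The members also differed in how steady they were within a group. The pooled within-group SD of log2 CPM (prior count 2) was 0.130 for miple1 and 0.108 for miple2, near the median of 0.142 over all tested genes. It was 0.583 for Alk and 0.754 for jeb. The midkine homologues were thus as even among replicates as a typical gene, while the receptor and ligand genes varied several times more than that.

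The libraries in which Alk and jeb were low or high were those in which neuron markers were low or high. The summed level of 8 neuron markers (elav, nSyb, Syt1, brp, fne, Appl, futsch and nrv3) was 132.8 CPM in WT replicate 1, 268.9 CPM in WT replicate 2 and 357.8 CPM in WT replicate 3. In the Double libraries it was 178.2, 125.3 and 229.1 CPM in the same order. No marker was at 0 in any library. None of the 8 markers passed the edgeR test and none stood at an unadjusted p under 0.05, against 1.49% and 12.3% of all tested genes. Of the 8, 7 had a log2 fold change below 0, with a median of -1.05 over the list. DESeq2 and limma-voom also called 0 of the 8. In a ratio chosen after the values were seen, Alk equalled 5.28 to 5.72% of this sum in all 6 libraries. jeb equalled 1.89 to 2.27% of it in WT and 0.938 to 1.54% in Double, so that the jeb groups did not overlap on this scale, as for 19.5% of all tested genes on the CPM scale. These ratios depend on the markers summed. Without elav and futsch, the markers that varied least, Alk equalled 9.51 to 24.2% of the sum of the other 6, and jeb 3.91 to 5.86% in WT and 2.94 to 4.18% in Double, with overlap. The part of neural tissue in the Alk and jeb values was not tested, and in bulk discs fewer cells of a type and less RNA per cell cannot be told apart. Within each group the miple1 values stood in the same order as the marker sums. They ranged 1.22-fold over the WT libraries and 1.14-fold over the Double libraries. The marker sum ran from 132.8 to 357.8 CPM for WT and from 125.3 to 229.1 CPM for Double. The part of neural tissue in the miple1 values was not tested.

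**Figure D2:**
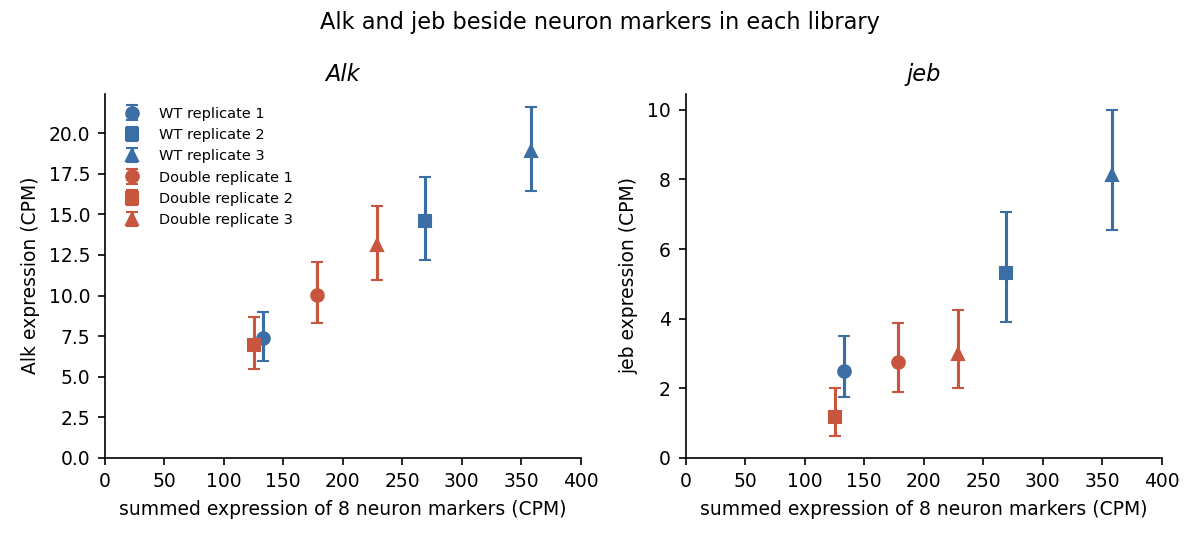
Expression of Alk (left) and jeb (right) in CPM against the summed CPM of 8 neuron markers, with 1 point per library, WT in blue and Double in red. Error bars are exact Poisson 95% intervals of the count and cover counting error only. WT replicate 1 and Double replicate 2, at 132.8 and 125.3 CPM of markers, hold the lowest Alk values, and WT replicate 3, at 357.8 CPM, holds the highest Alk and jeb values.

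Other tissues also differed between the libraries. Of the 6 glial markers, alrm was at 0 in WT replicate 1, and the summed level of the list ran from 63.7 to 118.2 CPM for WT and from 49.2 to 72.7 CPM for Double. The 6 haemocyte markers summed to 185.1 to 289.9 CPM for WT and 137.7 to 173.1 CPM for Double, without overlap. Double lay lower without overlap for 9.11% of all tested genes. All 6 haemocyte markers had a log2 fold change below 0, as had all 6 glial markers. Of the haemocyte markers 3 stood at an unadjusted p under 0.05, against 12.3% of all tested genes. edgeR called 0 of the 6, against 1.49% of all tested genes. DESeq2 called 1 haemocyte marker, and also 1 each of the fat body and salivary gland lists, beside 312 of the 13087 genes it was run on. Fat body markers ranged 69.9-fold and salivary gland glue genes 408-fold over the 6 libraries, with WT replicate 1 lowest in both. The log2 fold change was above 0 for 5 fat body markers and below 0 for 1. It was above 0 for 6 glue genes and below 0 for 1. The summed levels of both lists overlapped between the groups. The 7 leg disc epithelium markers summed to 1983 to 2172 CPM, a range of 1.10-fold, and each was detected in every library. This sum hides changes of single genes, with log2 fold changes above 0 for 3 of the 7 and below 0 for 4. edgeR called 1 of the 7, and 2 stood at an unadjusted p under 0.05. DESeq2 and limma-voom each called 1 of the 7 as well. Total counts ran from 8818943 to 13605668 per library.

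The genes around miple1 were read beside it. Of the 5 nearest tested genes on each side of miple1, 0 of 10 passed the edgeR test, 0 stood at an unadjusted p under 0.05, and 0 had groups that did not overlap. Over all tested genes these shares were 1.49%, 12.3% and 19.5%, so that a count of 0 among 10 is near the background. Their log2 fold changes ran from -0.19 for wac, an augmin complex gene, to 0.30 for snoRNA:Tudor-SN-a, which was read at only 1.14 CPM in WT. mRpL17, a mitochondrial ribosomal protein gene that ends 1.37 kb before miple1 starts, was read at 22.9 CPM for WT and 23.3 CPM for Double (log2 fold change 0.02, SE 0.11). Tudor-SN, a nuclease domain protein gene 2.92 kb away, was read at 883.5 and 878.2 CPM. DESeq2 and limma-voom each called 0 of the 10.

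**Figure D3:**
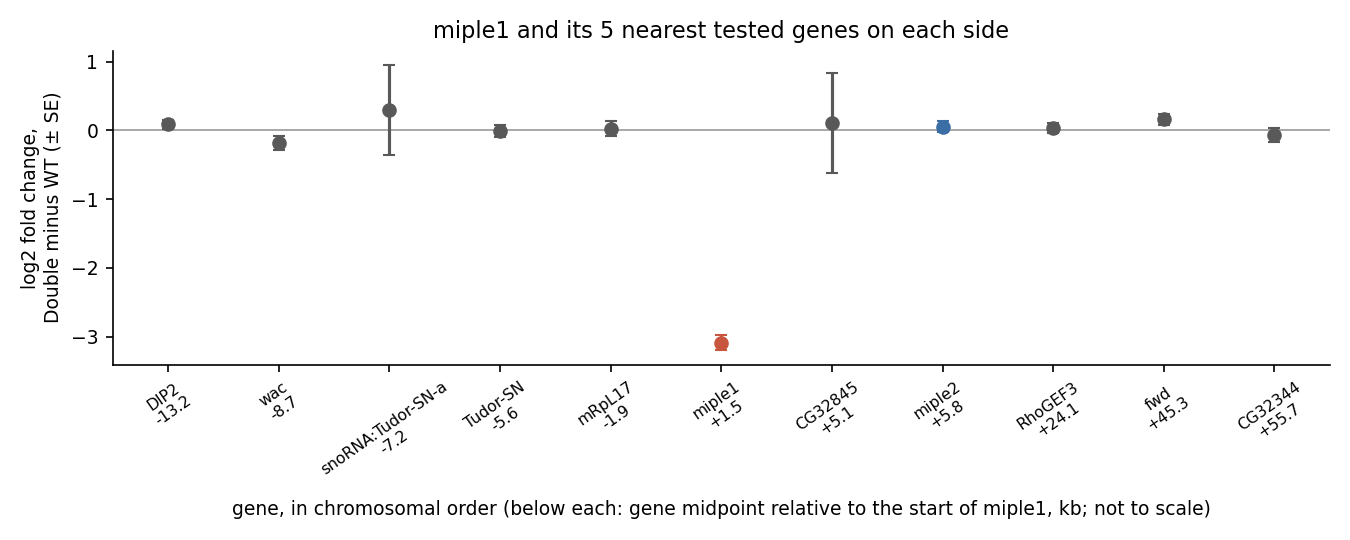
Log2 fold change of Double minus WT (vertical axis, error bars are the SE) for miple1 (red), miple2 (blue) and the other nearest tested genes (grey), placed in chromosomal order along the horizontal axis and not to scale. miple1 stands at -3.09, and the 10 neighbours lie between -0.19 and 0.30.

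The genes that carry the Alk signal inside the cell were read next. Of 15 tested genes of the receptor complex and the Ras and MAPK relay, 0 were called (edgeR) and 0 stood at an unadjusted p under 0.05. Over all tested genes these shares were 1.49% and 12.3%, so that 0 called among 15 is near the background. The log2 fold changes ran from -0.08 to 0.14 with a median of 0.07. The median over all tested genes was 0.00. The smallest p belonged to cnk, which encodes a scaffold of the Raf kinase and was read at 118.0 ± 9.92 CPM for WT and 129.5 ± 5.03 CPM for Double (log2 fold change 0.14, SE 0.08; edgeR adjusted p = 0.5227). Sos, the Ras exchange factor gene, had a log2 fold change of 0.14 (SE 0.08), and rl, which encodes the ERK kinase, -0.08 (SE 0.07). Their precision was high, with an SE of at most 0.1 for 13 of the 15. RNA levels say nothing of the phosphorylation through which this relay works.

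Of 9 tested genes that MAPK signalling switches on, or that feed back on it, 0 were called (edgeR). At an unadjusted p under 0.05 there were 2. Over all tested genes these shares were 1.49% and 12.3%, so that the counts are near the background. aop, the Yan repressor gene, was read at 257.8, 244.6 and 268.9 CPM for WT and at 311.2, 291.5 and 292.6 CPM for Double. Every Double library of aop lay above every WT library, as for 10.3% of all tested genes. It did not pass the test (log2 fold change 0.22, SE 0.07, edgeR adjusted p = 0.2232). The feedback inhibitor genes sty, aos and kek1 had log2 fold changes of 0.05 (SE 0.08), -0.04 (SE 0.11) and 0.09 (SE 0.08). Many receptors besides Alk, above all EGFR in the leg disc, act through this relay.

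Of the genes reported as Alk targets in other fly tissues, 3 of 5 matched genes had enough counts to be tested. Of these 0 were called (edgeR) and 0 stood at an unadjusted p under 0.05, against 1.49% and 12.3% of all tested genes. kirre, a cell adhesion gene of muscle founder cells, was read at 33.1 ± 4.16 CPM for WT and 33.2 ± 3.88 CPM for Double (log2 fold change 0.01, SE 0.12). The log2 fold changes of dpp, a BMP ligand gene, and of fax, an axon guidance gene, were 0.07 (SE 0.08) and -0.05 (SE 0.06). The founder-cell factor gene org-1 and the heart and gut muscle factor gene Hand were at or near 0, with 17 counts of org-1 and 2 of Hand over all 6 libraries.

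Heparan sulphate carries the binding sites of midkine-like proteins on cell surfaces and in the matrix. Of 5 tested proteoglycan core genes and 10 tested genes of heparan sulphate synthesis and editing, 0 were called (edgeR). In either list 0 stood at an unadjusted p under 0.05. Over all tested genes these shares were 1.49% and 12.3%. The glypican genes dally and dlp were read at 409.2 and 226.8 CPM for WT and at 430.3 and 236.6 CPM for Double. Syndecan (Sdc) was read at 233.6 CPM for WT and 244.5 CPM for Double, and the perlecan gene trol at 630.8 ± 108.2 and 757.4 ± 91.8 CPM (SD, n = 3 each; edgeR adjusted p = 0.5116). Cow, which encodes a secreted proteoglycan, was low and uneven, at 4.71, 12.2 and 14.4 CPM for WT and 3.79, 1.81 and 7.94 CPM for Double, with overlapping groups (log2 fold change -1.21, SE 0.63; edgeR adjusted p = 0.51). In the synthesis list sll, a sulphate donor transporter gene, had the smallest p (log2 fold change 0.17, SE 0.10, edgeR adjusted p = 0.5212). The gene frc had no count in any library. How counting treated its reads is unknown here, so this does not show that its RNA was absent.

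Receptor tyrosine phosphatases bind pleiotrophin in mammals, and 0 of 7 tested fly genes of this class were called (edgeR), with 1 at an unadjusted p under 0.05. That gene, Ptp4E, was read at 84.6, 101.3 and 98.02 CPM for WT and 107.1, 114.8 and 112.0 CPM for Double, without overlap (log2 fold change 0.24, SE 0.08; edgeR adjusted p = 0.2721). Ptp52F had the next smallest p and lay lower in Double, without overlap, at 2.73, 3.165 and 1.99 CPM for WT and 1.20, 1.085 and 1.89 CPM for Double (log2 fold change -0.91, SE 0.42; edgeR adjusted p = 0.4353). Ptp99A, also a transmembrane phosphatase gene, had a log2 fold change of -0.03 (SE 0.08). Over all 7 lists, with the receptor tyrosine kinases described last, 0 of 64 tested genes passed in edgeR, DESeq2 and limma-voom alike, against a background of 1.49% of tested genes called in edgeR. At an unadjusted p under 0.05 there were 4 of the 64 (6.25%, against 12.3% of all tested genes), 40 lay above and 24 below 0, and the median log2 fold change was 0.04. The groups did not overlap for 4 genes higher and 3 lower in Double, beside a background of 10.3% and 9.11% of tested genes in these directions.

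**Figure D4:**
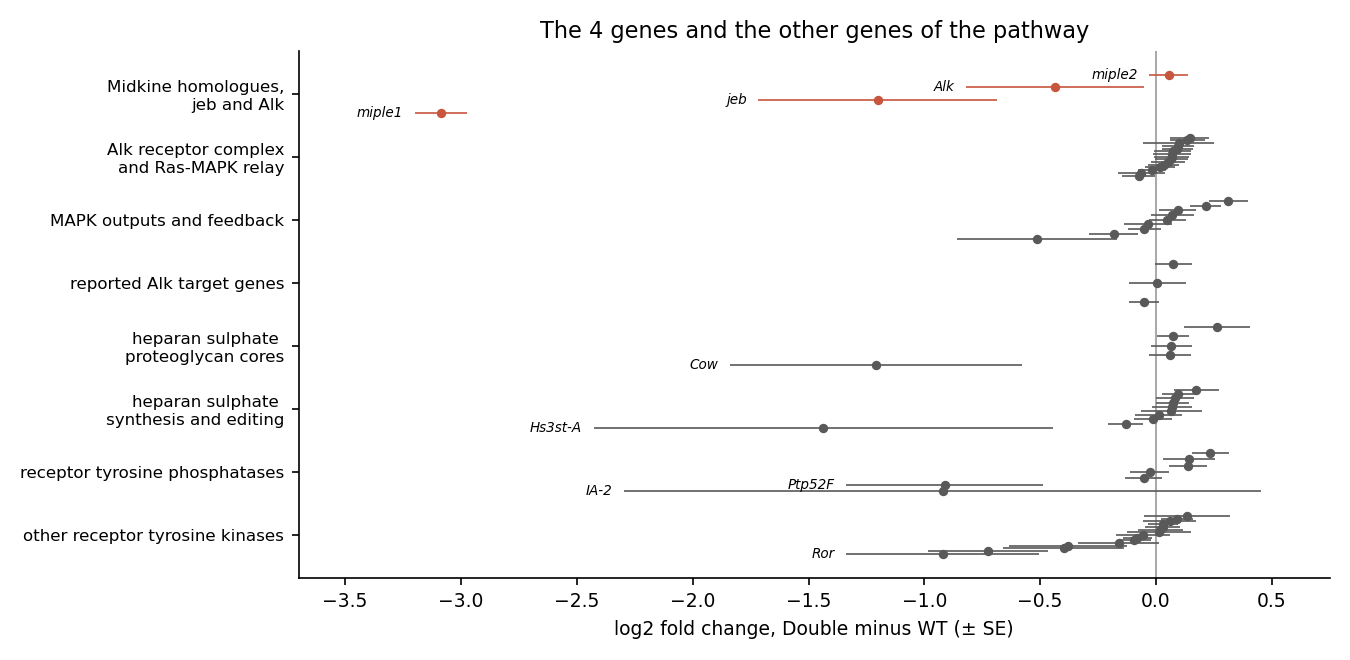
Log2 fold change of Double minus WT (horizontal axis, error bars are the SE) for miple1, miple2, jeb and Alk (red) and for the 64 tested genes of the 7 pathway lists (grey, 1 point per gene). Outside the members the lowest value is -1.44, and the named grey genes far below 0 have wide errors.

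The genes most like jeb in profile included neuron markers. Likeness was the root mean square difference of log2 CPM, centred on each gene's mean, over the 6 libraries, among 8086 tested genes whose average log2 CPM was 1 or more. The 5 genes nearest to jeb were CG15760, nerfin-1, a zinc finger factor gene of young neurons, CG9686, and the synaptic scaffold gene brp and the amyloid precursor-like gene Appl, which are members of the neuron list. Their differences from jeb were 0.122 to 0.214. nerfin-1 was read at 5.82, 12.7 and 25.2 CPM for WT and 6.28, 2.98 and 7.55 CPM for Double, which puts the 6 libraries in the same order as jeb. The 5 genes nearest to Alk were stl, CG7058, CG15312, CG12768 and Ih, an ion channel gene, at differences of 0.121 to 0.149.

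The 5 genes nearest to miple1 were Faa, the fumarylacetoacetase gene, the C-type lectin gene lectin-28C, asRNA:CR43767, the centrosomal protein gene Cen and dpr10, a gene of the immunoglobulin superfamily. Their differences from miple1 were 0.200 to 0.366, and they share its high WT and low Double levels by construction. Faa was read at 8.10, 9.04 and 8.86 CPM for WT and 0.688, 0.994 and 0.794 CPM for Double. Cen was read at 44.9, 52.3 and 51.2 CPM for WT and 11.5, 7.86 and 6.85 CPM for Double. Of these 5 genes dpr10 and Faa lie on 3L, the arm of miple1, and the other 3 on 2L. The 5 genes nearest to miple2 were GCS2beta, ArfGAP3, pr, Gp93 and Mrgn1, at differences of 0.015 to 0.026.

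**Figure D5:**
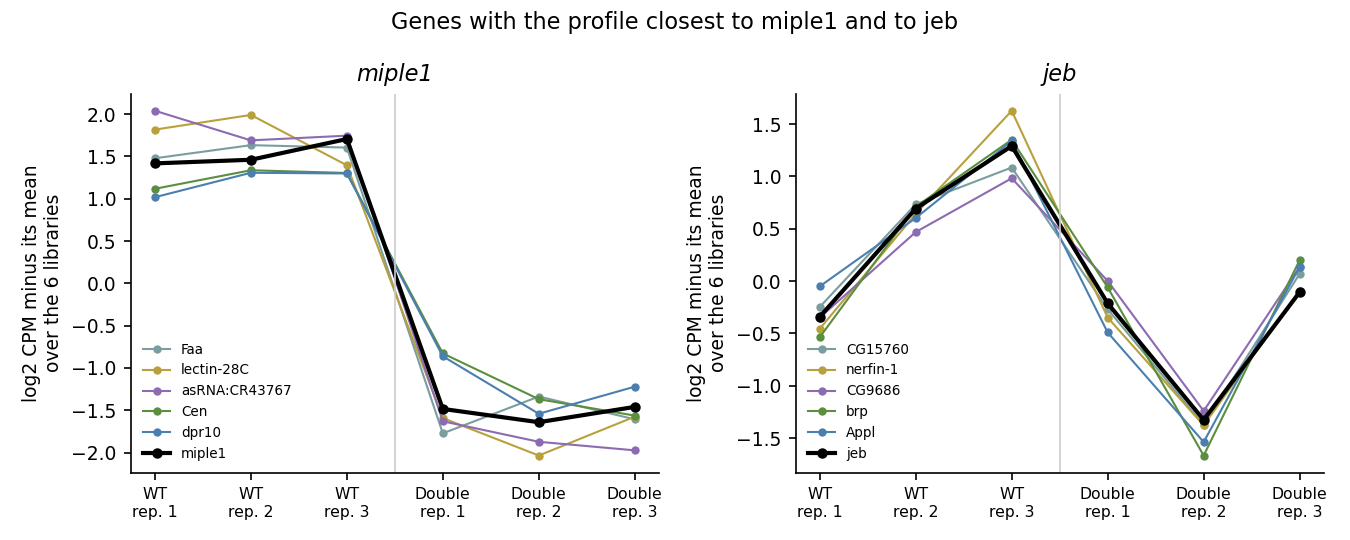
Log2 CPM minus its mean over the 6 libraries (vertical axis) in each library (horizontal axis) for miple1 (left, black) and jeb (right, black) and for the 5 genes with the closest profile to each (colours). Lines join the values of a gene and imply no order of replicates. The genes near miple1 separate the groups, and those near jeb peak in WT replicate 3 and are lowest in Double replicate 2.

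Of 15 tested genes of other receptor tyrosine kinases, 0 were called (edgeR), with 1 at an unadjusted p under 0.05. These shares were 1.49% and 12.3% over all tested genes. The median log2 fold change of the 15 was -0.06. Egfr was read at 522.2 ± 20.7 CPM for WT and 533.9 ± 14.9 CPM for Double, and InR, the insulin receptor gene, at 196.8 ± 33.4 and 189.3 ± 5.66 CPM (SD, n = 3 each). The gene under 0.05 was sev, the sevenless receptor gene of the eye, with a log2 fold change of -0.72 (SE 0.26; edgeR adjusted p = 0.3141).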

How the data were processed

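The deposited table holds whole-number read counts per gene, not normalized, for 6 libraries. Per the submitters' processing notes, the tools were STAR 2.7.0, HTSeq and DESeq2 and the genome was dm6; their roles are not stated. Strand-specific kits were used per the labels' protocols. How counting treated strand, which annotation it used and any filter are unknown here. Of 17612 identifiers, 17540 matched the Ensembl annotation BDGP 6.54 (release 115), whose coordinates are those of dm6, and which gave positions and exon lengths.

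The main test was edgeR 4.0.16 (quasi-likelihood, TMM, filterByExpr, group as the only term) in R 4.3.3. A gene was called at a Benjamini-Hochberg adjusted p under 0.05 over 8802 tested genes. The SE is the log2 fold change divided by the square root of F. The procedure was tested on simulated data. Counts of replicates differed beyond sampling noise (8.99 to 36.3 as chi-square over degrees of freedom), and each was kept as a sample. The total counts limit precision: 1 count equals 0.0737 to 0.113 CPM.

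The members and the 7 pathway lists (70 names, 69 matched; Sprar had no match) and the marker lists were chosen with earlier results of these data known. Named genes are the members, up to 3 genes of each list with the smallest p or past the test, the 5 nearest tested genes on each side of miple1 and the 5 closest profiles; others were chosen after their values were seen. 1 list member is not reported here. Alternatives were RLE factors (as in DESeq2), library totals, no filter, at least 1 CPM in 3 libraries, DESeq2 1.42.0, voom of limma 3.58.1, a replicate block, and each library left out. Figures used matplotlib 3.10.9 in Python 3.11.15.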

Additional observations from a re-analysis of the deposited data

How the results depend on the processing

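The log2 fold change of miple1 was -3.10 to -3.08 over the 7 alternatives that keep all libraries and -3.14 to -3.0003 when libraries were left out in turn. None of miple2, Alk and jeb passed in any of the 13 alternatives. For miple2 the value was 0.04 to 0.06 with all libraries kept and -0.003 to 0.133 with libraries left out, the sign turning without Double replicate 1. For Alk the ranges were -0.45 to -0.32 and -0.74 to -0.13, and for jeb -1.22 to -1.06 and -1.55 to -0.76. WT replicate 1, low in neuron markers, gave the lowest values when left out, -0.74 for Alk and -1.55 for jeb (edgeR adjusted p = 0.2496 and 0.144, unadjusted p = 0.02063 and 0.00623). Without WT replicate 3 the values for Alk and jeb were -0.13 and -0.76 (edgeR unadjusted p = 0.7423 and 0.2087). Without Double replicate 2, the lowest library in neuron markers, they were -0.23 and -0.89 (edgeR unadjusted p = 0.5905 and 0.1314). The number of pathway genes called was 0 in every alternative run. The number of all genes called, 131, was 312 with DESeq2. Leaving out a library, which puts fewer samples in the fit, changed it in both directions. It was 157, 64 and 88 without WT replicates 1, 2 and 3, and 67, 69 and 46 without Double replicates 1, 2 and 3. With the replicate block it was 166, and the log2 fold changes were -3.08 for miple1, 0.06 for miple2, -0.38 for Alk and -1.15 for jeb. The deviations of same-numbered libraries from their group means correlated at -0.071, -0.251 and 0.389 for numbers 1, 2 and 3. Not every library correlated best with its own number, though those numbered 3 did. With 3 centred libraries per group these correlations constrain each other, so they cannot settle whether the numbers pair the libraries. Depth limits jeb most, with 13 to 90 counts per library.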
